A study of Ischnura elegans with 24 samples.

Results

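The 60 transcript contigs described here, measured in Ischnura elegans, the blue-tailed damselfly, were selected on their response to rearing temperature in northern populations. A contig is a transcript sequence assembled from reads without a genome, here by Trinity. Levels were CPM, read counts per library size, with library sizes scaled by the trimmed mean of M values (TMM), taken to log2(CPM + 1). The response of a population is its mean log2 level at 24 °C minus that at 20 °C. Of 34095 contigs in the table, 29745 were counted in all 24 libraries, and 12096 of these had a mean of 5 CPM or more and are called abundant contigs below. All 3 northern populations responded in 1 direction in 4252 of them. The mean southern response lay between -0.15 and 0.15 in 2757 of these, and the southern minus northern level at 20 °C lay in the same limits in 1554. From those, the rule took the 60 whose weakest northern population response was largest in size. Of the 60, 44 had higher northern levels at 24 °C, called warm-high members here, and 16 had lower ones, called warm-low members.

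Whole bodies of male larvae in their final instar were studied. The larvae were the laboratory-reared offspring of females from 3 northern and 3 southern populations, divided at random between 20 and 24 °C after hatching, kept singly and fed brine shrimp nauplii. RNA of 3 larvae was mixed in each pool, and each population and temperature had pools a and b, which gave 6 libraries in each of the 4 groups of latitude and temperature and 72 larvae in all. No genotype, strain or further treatment separates the groups, and the labels place a population only by its latitude and a number.

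Phenotypic plasticity is the capacity of a genotype to change its phenotype with the environment, and a response of transcript levels to rearing temperature is a case of it. The series title sets genetic assimilation, in which a once plastic state becomes fixed, against genetic compensation, in which evolved differences offset a plastic change. Contigs that respond in northern larvae and not in southern larvae, from a shared level at the lower temperature, are a class for which the plastic response itself would differ between latitudes. In insects, rearing temperature is known to act on growth, metabolism, the cuticle and the stress response, and a whole larva holds all of these tissues.

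Library totals were 12061616 to 17157615 counts. A count of 3, the floor used here, was 0.1748 to 0.2487 CPM, and the lowest count of any member in any library was 20. The TMM factors averaged 0.888 in northern larvae at 24 °C and 1.02 to 1.08 in the other groups. A chi-square statistic of pool a against pool b, over contigs with 20 or more counts in both pools together, was 13.23 to 66.23 per degree of freedom. It was highest in northern population 1 at 20 °C. None of the contig identifiers matched a gene in the RefSeq table of the species (0 matches), and since the files give identifiers without gene names, no function is given to a member. The larvae were whole bodies, in which fewer cells of a type and less RNA per cell cannot be told apart.

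The members were contigs of moderate abundance, with a median of 13.5 CPM over the 24 libraries against 18.5 CPM for the abundant contigs. They ranged from 5.17 to 78720 CPM. The 60 contigs came from 60 different Trinity genes and from 60 different Trinity components, the groups of connected sequences from which the assembler builds contigs. Whether members of different components belong to 1 transcript was not tested.

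The northern changes that chose the members were modest in size. The absolute northern mean response had a median of 0.48 on the log2 scale and ran from 0.29 to 0.90, which corresponds to changes of 1.22-fold to 1.87-fold in CPM + 1. On this scale of CPM + 1 the change reached 1.5-fold in 13 members and 2-fold in 0. The median response was 0.49 for warm-high and -0.43 for warm-low members. These values chose the members and are descriptions only. The edgeR fit given below is on another scale, and there TRINITY_DN126207_c0_g1_i2 had a northern log2 change of -1.0025, which reaches 2-fold. Among the abundant contigs the median absolute northern response was 0.13.

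Each northern population gave the weakest response in some members and the largest in others. The median response along each member's own northern direction was 0.42 in northern population 1, 0.44 in population 2 and 0.45 in population 3. The weakest of the 3 responses came from population 1 in 19 members, from population 2 in 19 and from population 3 in 22. The largest came from population 1 in 23 members, from population 2 in 22 and from population 3 in 15. The largest single values stood in populations 1 and 2, at 1.70 and 1.51 along the northern direction, while population 3 reached 0.89. The last contig taken, TRINITY_DN7163_c0_g1_i3, had a weakest northern response of 0.272, and the first left out, TRINITY_DN80451_c0_g1_i2, had 0.269. No gap separates the list from the contigs that follow it.

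**Figure D1:**
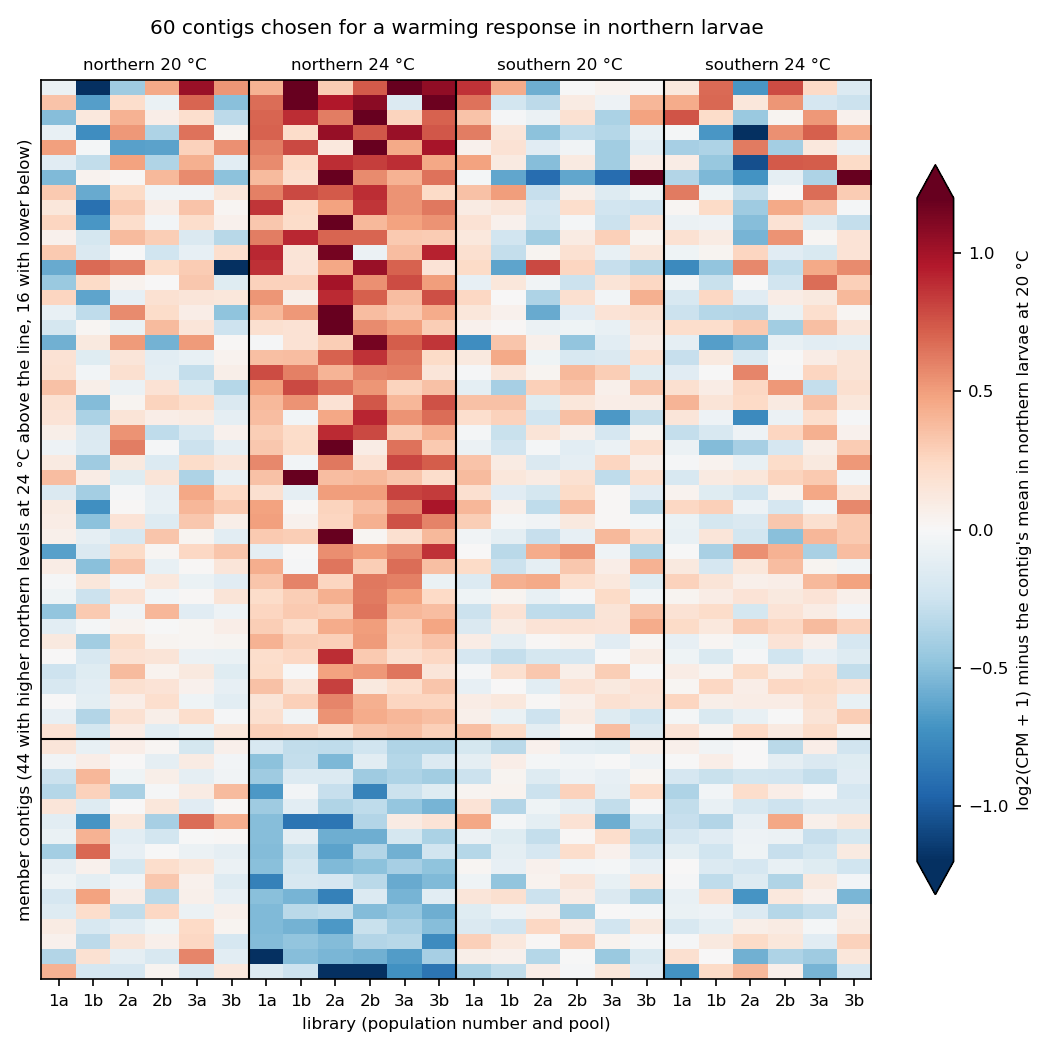
Colour gives log2(CPM + 1) of each member (rows) in each library (columns) minus that contig's mean in northern larvae at 20 °C, ordered within direction by mean northern response and clipped at the ends of the scale. The 6 northern libraries at 24 °C stand out because the rule selected on them, with 53 to 60 of the 60 members displaced in the northern direction, and in the southern libraries at 24 °C 28 to 46 were.

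The displacement was seen in every northern library at 24 °C, though not to the same extent. A member's deviation from its own mean in northern larvae at 20 °C, signed by its northern direction, had a median over the 60 members of 0.25 to 0.55 in these 6 libraries. It was -0.17 to 0.13 in the northern libraries at 20 °C, -0.06 to 0.09 in the southern libraries at 20 °C and -0.01 to 0.18 in those at 24 °C. The number of members on the northern side of their own reference was 53 in the lowest northern library at 24 °C, pool b of population 1, and 60 in the highest, pool a of population 2. In northern larvae at 20 °C it ran from 17, in pool b of population 1, to 43.

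The warm-high member with the highest rank was TRINITY_DN5465_c7_g5_i1. Its level in northern larvae was 6.41, 10.3 and 13.2 CPM (lowest, median and highest of 6 libraries) at 20 °C and 11.7, 16.2 and 25.9 CPM at 24 °C. In southern larvae it was 7.10, 10.2 and 13.8 CPM at 20 °C and 6.77, 10.7 and 16.8 CPM at 24 °C. The northern groups overlapped in 1 stretch, since the lowest library at 24 °C, pool a of population 3, lay below the highest library at 20 °C. The response was 0.99, 0.73 and 0.54 in northern populations 1 to 3 and 0.32, -0.26 and 0.24 in southern populations 1 to 3.

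The warm-high member of rank 2, TRINITY_DN71268_c0_g1_i3, had nearly the same weakest northern response but very unlike southern populations. Its northern levels were 7.14, 12.4 and 20.4 CPM at 20 °C and 14.9, 21.8 and 27.1 CPM at 24 °C. Its southern levels were 8.66, 10.9 and 19.9 CPM at 20 °C and 4.66, 14.98 and 21.4 CPM at 24 °C. The mean of southern population 1 went from 16.96 to 9.89 CPM and that of southern population 3 from 10.8 to 19.5 CPM between 20 and 24 °C. Its southern responses of -0.74, 0.04 and 0.80 averaged 0.03, so the flat southern mean of this contig was made of opposite values.

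Among warm-low members TRINITY_DN137370_c0_g1_i1 ranked highest. Its northern levels were 5.79, 6.96 and 12.01 CPM at 20 °C and 2.19, 4.86 and 5.56 CPM at 24 °C, with no overlap. Its southern levels were 5.34, 7.12 and 8.08 CPM at 20 °C and 4.79, 6.66 and 8.86 CPM at 24 °C. The southern groups overlapped almost wholly, and southern values at 24 °C reached down into the northern range at 24 °C.

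The other warm-low member named by rank was TRINITY_DN75122_c1_g1_i3. It measured 9.11, 9.91 and 13.1 CPM in northern larvae at 20 °C and 5.41, 7.41 and 8.89 CPM at 24 °C, again with no overlap. Southern larvae held 7.12, 10.2 and 11.51 CPM at 20 °C and 7.81, 9.59 and 11.2 CPM at 24 °C. Northern and southern larvae thus overlapped at 24 °C for this contig.

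The most abundant warm-high member, TRINITY_DN68415_c43_g1_i1, was also the most abundant of all 12096 abundant contigs. It took 3.95 to 11.1% of the raw counts of a library. Its northern levels were 36410, 73250 and 85680 CPM at 20 °C and 80040, 101800 and 122800 CPM at 24 °C. Its southern levels were 57020, 65660 and 78680 CPM at 20 °C and 50350, 74170 and 92800 CPM at 24 °C. The northern groups overlapped because pool b of population 1 at 24 °C, at 80040 CPM, lay below 2 of the 6 libraries at 20 °C. The lowest value, 36410 CPM, also belonged to pool b of population 1, at 20 °C. The response was 0.93 in northern population 1, 0.47 in population 2 and 0.41 in population 3, and 0.40 in southern population 3 against 0.00 and 0.01 in southern populations 1 and 2.

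The most abundant warm-low member was TRINITY_DN222740_c0_g1_i1. Northern larvae held 136.0, 154 and 184 CPM at 20 °C and 96.1, 108 and 129 CPM at 24 °C. Southern larvae held 132, 152 and 184 CPM at 20 °C and 136, 158 and 167 CPM at 24 °C. All 6 northern libraries at 24 °C lay below each of the other 18 libraries, whose lowest value was 132 CPM. Its response was -0.50, -0.38 and -0.59 in the northern populations and 0.05, -0.09 and 0.10 in the southern ones.

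**Figure D2:**
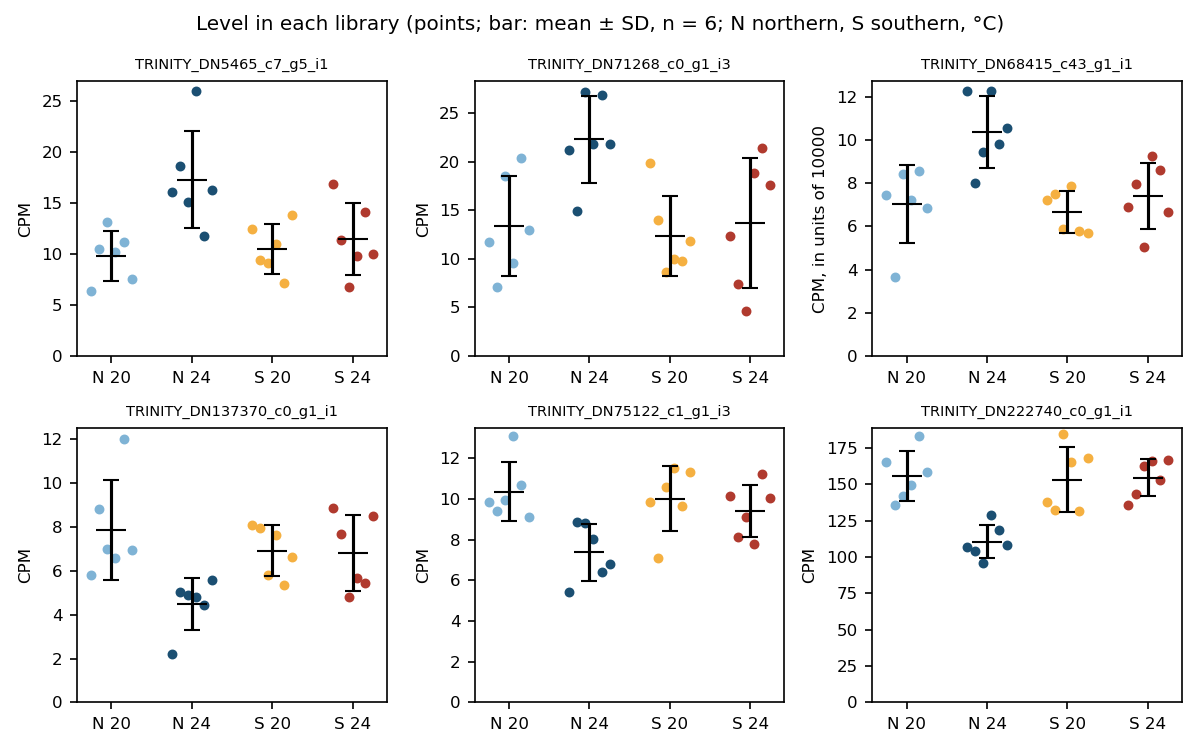
CPM of 6 members in each library (points), with the mean and SD of the 6 libraries of a group, for northern (N) and southern (S) larvae at 20 and 24 °C. In TRINITY_DN222740_c0_g1_i1 all 6 northern libraries at 24 °C (96.1 to 129 CPM) lie below the other 18, while in TRINITY_DN71268_c0_g1_i3 the southern libraries at 24 °C spread from 4.66 to 21.4 CPM.

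In most members the groups were not fully separated. The 6 northern libraries at 24 °C lay wholly above or below the 6 at 20 °C in 13 of the 60, 6 of them higher and 7 lower. The same held for 1.81% of the abundant contigs, and nothing is read from the difference because the rule used this contrast. Southern libraries at 24 and 20 °C were separated in 0 members (1.15% of abundant contigs), and northern and southern libraries at 20 °C in 0 members (2.53%). At 24 °C northern and southern libraries were separated in 10 members, in 8 with northern larvae higher and in 2 with them lower (5.86%). This last contrast also follows from the rule, which held the latitudes together at 20 °C and let only the northern level move. Southern minus northern levels at 24 °C had medians of -0.42 in warm-high and 0.31 in warm-low members.

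The northern libraries at 24 °C stood apart from all other 18 libraries in 4 members, against 0.43% of the abundant contigs. These were picked out after their values were seen. TRINITY_DN69259_c0_g1_i1 had 93.4 to 111 CPM there against 57.8 to 90.4 CPM elsewhere, and TRINITY_DN4855_c10_g1_i1 had 37.9 to 62.1 against 27.0 to 37.6 CPM. TRINITY_DN69348_c0_g3_i2 had 3.76 to 5.36 against 5.45 to 8.93 CPM, and the fourth was TRINITY_DN222740_c0_g1_i1, described above. The margins were narrow in TRINITY_DN4855_c10_g1_i1, at 37.9 against 37.6 CPM, and in TRINITY_DN69348_c0_g3_i2, at 5.36 against 5.45 CPM.

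A test over all 31287 contigs that passed the abundance filter included all 60 members. Warming was fitted in each latitude with 1 intercept per population by edgeR quasi-likelihood F tests, and p-values were adjusted by Benjamini-Hochberg over all contigs. The northern response was called in 9 of 60 members at an adjusted p under 0.05, 5 higher and 4 lower, beside 0.559% of all contigs. The southern response was called in 0 (0.105% of all contigs), with 0 members at an unadjusted p under 0.05 and 0 by DESeq2. Both contrasts were used to choose the members, so these counts describe them and support nothing. The count of 9 in edgeR became 42 in DESeq2. It was 19 without pool a of northern population 1 at 20 °C and 2 without pool b of population 2 at 20 °C. It was 4 without pool a of population 3 at 24 °C. It was 5 without pool a of population 1 at 24 °C, pool a of population 2 at 20 °C or either pool of population 3 at 20 °C. Leaving out a whole northern population gave 3 without population 1, 1 without population 2 and 0 without population 3. The southern count was 0 in each of these fits.

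The difference between the responses is the contrast that the description "northern only" rests on, and it was called in 0 of the 60 members by edgeR (0.0256% of all contigs). The smallest adjusted p in edgeR was 0.203, for TRINITY_DN222740_c0_g1_i1, with a southern minus northern response of 0.51 ± 0.12 (SE). At an unadjusted p under 0.05 there were 39 members, beside 5.17% of all contigs, a count that the choice of members itself raises. DESeq2 called 1 member, the same TRINITY_DN222740_c0_g1_i1, at a log2 difference of 0.52 and an adjusted p of 0.0371. A northern response that passes a threshold and a southern one that does not is no test of a difference. The 60 contigs are therefore best called by their rule, as contigs chosen for a northern response beside a flat southern mean.

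The rule fixed the southern mean but not the 3 southern populations behind it. The counts below stand beside the shares among the 1554 contigs that met all conditions before the ranking. In 11 of the 60 members all 3 southern populations responded in 1 direction (18.3%, beside 25.5%). Of these, 8 went along the northern direction (13.3%, beside 20.8%) and 3 against it (5%, beside 4.7%). In 30 members 2 southern populations followed the northern direction (50%, beside 47.6%), and in 19 members 1 did (31.7%, beside 27%). The counts of 3, 30 and 19 were near their background. In 9 members each southern population lay within -0.15 to 0.15 (15%, beside 35.1%). In 16 members at least 1 southern population responded, in either direction, by as much as the member's weakest northern population (26.7%, beside 84.7%). The ranking bears on this last measure, since it took contigs whose weakest northern response was large. The range over the 3 southern responses had a median of 0.40, against 0.31 in the abundant contigs. Members also varied more between the pools of a population and temperature, with a median SD of 0.239 against 0.205 on the log2 scale. The part of this pool spread in the range was not tested.

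Responses followed the northern direction in 24 members (40%) in southern population 1, 40 (66.7%) in population 2 and 39 (65%) in population 3. Among the 1554 contigs that met all conditions before the ranking, the shares were 57.7%, 59.2% and 67.6%, so the count in population 3 was near its background. The differences between the populations were not tested on these counts. The medians along the northern direction were -0.04, 0.05 and 0.08. For the warm-high members they were -0.09, 0.04 and 0.11, with values up to 0.82 in southern population 3 and down to -0.74 in population 1.

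**Figure D3:**
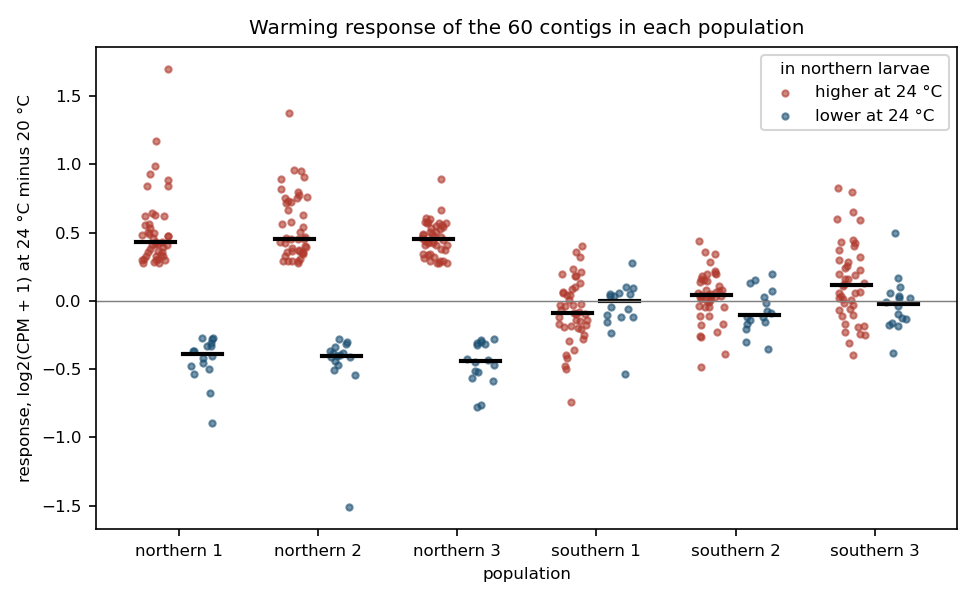
Response of each member (points) in each population, as log2(CPM + 1) at 24 °C minus that at 20 °C, with the median of warm-high and of warm-low members as bars. The northern populations hold no values near 0 because of the rule, and the southern values scatter around 0 from -0.74 to 0.82.

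Whether the southern populations differed in their response was tested with a mean for each of the 12 combinations of population and temperature. No member was called by edgeR (0 of 60, as 0% of all contigs) or by DESeq2 (0). In edgeR 3 members, or 5% of the 60, had an unadjusted p under 0.05, beside 4.14% of all tested contigs and 3.88% of the abundant ones. This count of 3 was near its background.

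The smallest of these p-values belonged to TRINITY_DN278538_c1_g1_i1, with an edgeR adjusted p of 1. Its southern population 3 went from a mean of 25.5 to 38.5 CPM between 20 and 24 °C, southern population 2 from 38.5 to 27.4 CPM and southern population 1 from 42.5 to 37.0 CPM. Its northern populations went from 33.8 to 40.9, from 38.9 to 59.0 and from 35.9 to 55.1 CPM. Southern population 3 thus moved as the northern ones did, and the other southern populations moved against them. In TRINITY_DN12262_c0_g4_i5, next by p and also with an edgeR adjusted p of 1, southern population 3 went from 31.3 to 42.3 CPM, while southern population 2 went from 34.3 to 34.8 and southern population 1 from 35.8 to 33.5 CPM.

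Populations of a latitude could also differ in level at both temperatures, a contrast that the rule did not use. The larvae of each population have a common source, and these p-values measure the spread between the pools of this experiment. Among the 3 northern populations edgeR called 2 of the 60 members at an adjusted p under 0.05, beside 0.694% of all contigs. At an unadjusted p under 0.05 in edgeR there were 19 members, or 31.7%, beside 12.8% of all tested contigs and 13.6% of the abundant ones. With a mean for each population and temperature there were 15. The first fit counts differences among the northern responses as spread, and the rule, which asked for responses of 1 sign, bears on that spread. The range of the 3 northern population means had a median of 0.33 on the log2 scale in the members and 0.21 in the abundant contigs. The SD between pools was also larger in the members, with medians of 0.239 and 0.205, and its part in this range was not tested. Northern population 1 was highest in 11 members, population 2 in 31 and population 3 in 18.

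Both called members were warm-high and had their lowest northern level in population 1. TRINITY_DN69356_c11_g4_i2 had 39.7 ± 7.45 CPM in northern population 1, 59.0 ± 10.1 in population 2 and 67.2 ± 13.7 in population 3 (mean ± SD, n = 4 libraries over both temperatures; edgeR adjusted p = 0.0357). TRINITY_DN69065_c0_g1_i2 had 7.39 ± 1.47, 9.72 ± 2.38 and 12.8 ± 2.65 CPM in the same order (n = 4; edgeR adjusted p = 0.0406). The count of 2 members was 0 to 3 when 1 library at a time was left out. It was lower without 13 of the 24 libraries, and was 3 without pool b of northern population 2 at 24 °C or pool a of southern population 1 at 20 °C. DESeq2 called 3 members. In edgeR both calls were lost with pools summed (adjusted p = 0.172 for TRINITY_DN69356_c11_g4_i2 and 0.383 for TRINITY_DN69065_c0_g1_i2), with population-by-temperature means (0.0767 and 0.0514) and with contigs at 0 in 10 or more libraries left out (0.0669 and 0.0681). Both were also lost without northern population 1 (0.735 and 0.404), without northern population 3 (0.268 and 0.571), and without southern population 1 (0.0513 and 0.0584) or 2 (0.0936 and 0.0547). TRINITY_DN69356_c11_g4_i2 had adjusted p-values of 0.00804 to 0.12 when 1 library at a time was left out, and TRINITY_DN69065_c0_g1_i2 of 0.0271 to 0.143. The highest value for TRINITY_DN69356_c11_g4_i2 came without pool a of northern population 1 at 24 °C, and that for TRINITY_DN69065_c0_g1_i2 without pool a of northern population 3 at 20 °C.

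Among the 3 southern populations edgeR called 0 of the 60 members in level, beside 0.109% of all contigs, and DESeq2 called 2. In edgeR 7 members, or 11.7% of the 60, had an unadjusted p under 0.05, beside 7.13% of all tested contigs and 6.52% of the abundant ones. The range of the southern population means had a median of 0.22 in the members and 0.18 in the abundant contigs. As for the northern range, the part of the larger pool spread of the members was not tested. The smallest p again belonged to TRINITY_DN69356_c11_g4_i2, with 41.1 ± 5.97, 65.2 ± 3.01 and 43.9 ± 11.7 CPM in southern populations 1 to 3 (n = 4; edgeR adjusted p = 0.113, DESeq2 adjusted p = 0.0116). Southern population 2 was the high one there. Without pool b of southern population 3 at 24 °C its edgeR adjusted p was 0.0169.

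The southern value of TRINITY_DN1958_c1_g1_i2 rested on 2 libraries. It measured 65.1 CPM in pool b of southern population 3 at 20 °C and 28.4 CPM in pool b of that population at 24 °C. The other 5 southern libraries at 20 °C held 4.94 to 10.0 CPM and the other 5 at 24 °C held 5.81 to 9.40 CPM. Its edgeR adjusted p over southern populations was 0.315, and 0.917 without the pool at 65.1 CPM. It was 0.0558 without pool a of southern population 3 at 20 °C, and DESeq2 called this contig at an adjusted p of 0.0358. The 3 southern responses of this warm-high member were -0.12, 0.35 and -0.31.

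The same measure was then read in libraries that a choice had not used. The rule was applied to the 12 libraries of pool a alone, which gave another 60 contigs, and their responses were read in the 12 libraries of pool b, and then with the pools exchanged. The list chosen on pool a and the list chosen on pool b shared 2 contigs, and they held 9 and 6 of the 60 members. The pools of a population were separate larvae reared in the same way.

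The northern response of contigs chosen on pool a was 0.65 in pool a and 0.29 in pool b, as the mean over contigs along the chosen direction. The 3 northern populations had 0.14, 0.27 and 0.46 in pool b. The southern mean was 0.04 in pool a and 0.03 in pool b, with 0.01, 0.05 and 0.03 in the 3 southern populations. All northern values in the unused pool lay above the southern ones, and the northern value was less than in the pool that chose the contigs. The northern mean response was larger than the southern one along the chosen direction in 52 of the 60 contigs, beside 56.5% of the abundant contigs. All 3 northern populations kept the direction in 29 of 60, beside 21.6% of the abundant contigs. The abundant contigs had mean responses along the chosen direction of 0.09 (northern) and 0.04 (southern) in pool b. These southern means average signed values, so opposite responses of single contigs cancel in them. Per contig, the southern mean response in pool b lay within the limits of the rule in 39 of 60. The share of abundant contigs was 62.5%, so this count was near its background. All conditions of the rule were met again in 8 of 60.

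With the pools exchanged, the northern response was 0.54 in pool b and 0.20 in pool a, with 0.14, 0.27 and 0.19 in the 3 northern populations. The southern mean was 0.04 in pool b and 0.10 in pool a, with -0.01, -0.02 and 0.33 in the 3 southern populations. Southern population 3 exceeded all 3 northern populations in this reading, and 53 of the 60 contigs had its response in the northern direction. The northern response was the larger in 35 of 60 contigs, beside 55.6% of the abundant contigs, so this count was near its background. All 3 northern populations kept the direction in 24 of 60, beside 24.9% of the abundant contigs. The abundant contigs had mean responses along the chosen direction of 0.09 (northern) and 0.04 (southern) in pool a. Per contig, the southern mean response in pool a lay within the limits of the rule in 32 of 60. The share of abundant contigs was 59%, so this count was not above its background. All conditions of the rule were met again in 6 of 60.

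**Figure D4:**
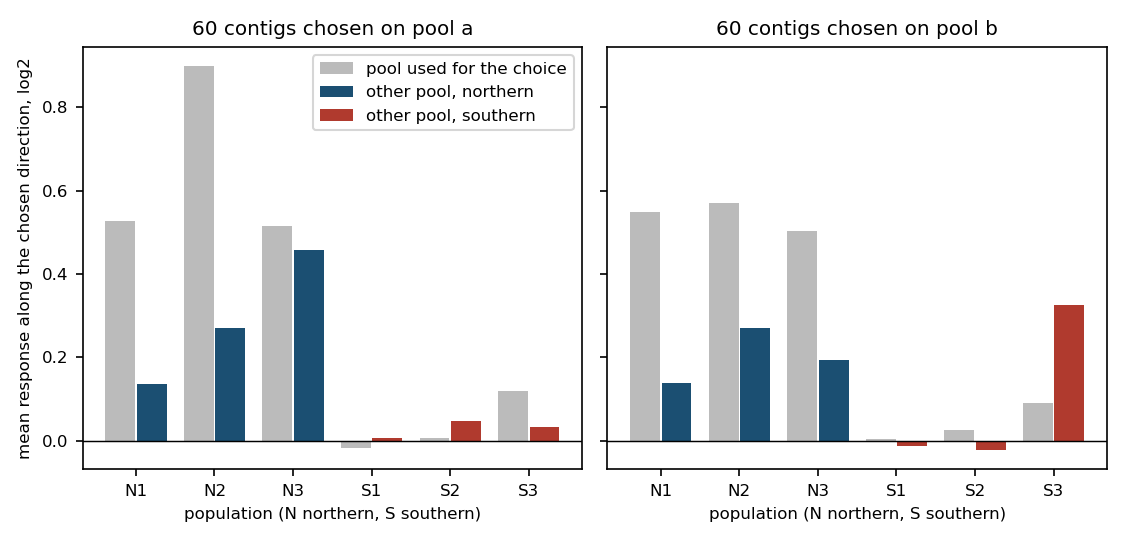
Mean response over 60 contigs chosen by the rule on pool a (left) or pool b (right), in log2 units along the direction of the choice, in the pool used for the choice (grey) and in the other pool (blue northern, red southern). Northern bars shrink from 0.65 to 0.29 and from 0.54 to 0.20 on average, and southern population 3 stands at 0.33 in the right panel.

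In edgeR fits on the unused pool alone, the contigs chosen on pool a had an unadjusted p under 0.05 for the northern response, in the chosen direction, in 18 of 59 tested, beside 6.23% of all contigs. The difference between the latitudes did so in 8 of 59, beside 2.56%. For the contigs chosen on pool b these counts were 10 of 60 for the northern response, beside 6.44%, and 2 of 60 for the difference, beside 2.54%. At an adjusted p under 0.05 edgeR called 0 contigs of either list for either contrast, in designs with 1 library for each population and temperature. The share for the northern response lay above that of all tested contigs in both readings. The chosen contigs had passed the limit of 5 CPM, and no share over abundant contigs was taken here. Over all 24 libraries edgeR gave this contrast an unadjusted p under 0.05, in either direction, in 18.4% of abundant and 13.6% of all contigs. For the difference, the count in pool b lay above its background and that in pool a near it.

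The components of some members hold other contigs, which can be isoforms, pieces or related sequences and may share reads with the member; which of these they are was not tested. For 20 members the table holds 56 such contigs, and 52 of them had the member's northern direction. Of the 31 that were abundant, 29 had that direction, 28 of them in all 3 northern populations, with a median northern response of 0.42 along it. Their southern mean response had a median of 0.07 and lay within -0.15 to 0.15 in 17 of the 31. These contigs are not independent of the members.

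The component of the highest-ranked member was the largest example. TRINITY_DN5465_c7 holds 9 other contigs, and all 9 had positive responses in all 3 northern populations, with northern means of 0.59 to 0.95. Their southern means ran from -0.17 to 0.34. Summed over the 9, the level was 115 ± 14.7 CPM in northern larvae at 20 °C and 192 ± 44.7 at 24 °C, and 149 ± 31.6 and 149 ± 13.3 CPM in southern larvae (SD, n = 6). At 20 °C the southern mean was thus above the northern one, a difference that was not tested. The libraries overlapped, at 95.1 to 180 CPM in southern and 98.8 to 133 CPM in northern larvae. Southern population 3 was not above the northern range, with 130 CPM in pool a and 95.1 CPM in pool b. Only 3 of the 9 contigs lay within the limits of the rule at 20 °C. The equal level at 20 °C that placed TRINITY_DN5465_c7_g5_i1 in the list was not shared by most of its component.

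**Figure D5:**
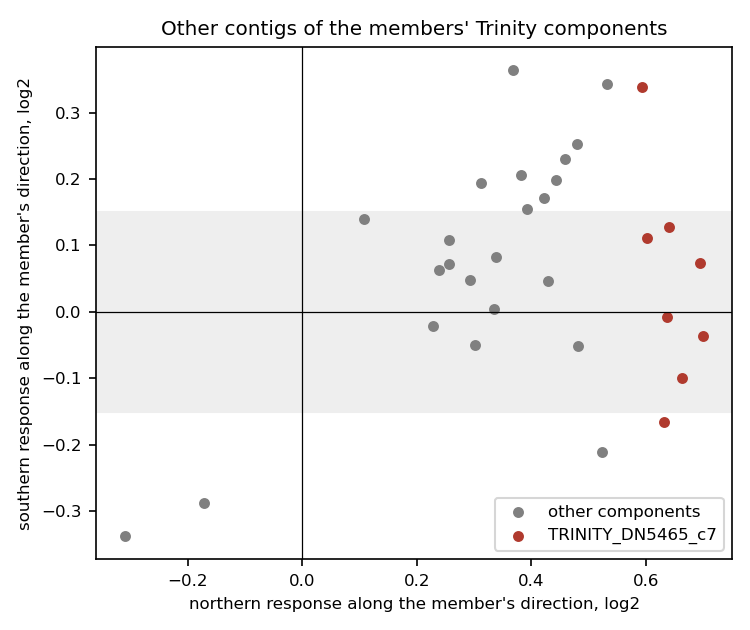
Northern against southern mean response (log2, signed by the member's northern direction) of the 31 abundant contigs that share a Trinity component with a member, with the 8 abundant ones of TRINITY_DN5465_c7 in red and the limits of -0.15 to 0.15 shaded. All but 2 lie to the right of 0, and 17 lie inside the shaded band.

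Contigs of the same Trinity gene, the assembler's isoforms, gave a similar picture with an exception. There were 14 for 10 members, of which 12 had the member's northern direction. The gene with most of them was that of TRINITY_DN7163_c0_g1_i3, whose 4 other contigs all had negative northern responses, from -0.14 to -0.31, beside -0.37 in the member. The exception was TRINITY_DN75122_c1_g1_i3, with a northern response of -0.44, whose 2 other contigs had 0.04 and 0.17. The contig at 0.17 was positive in all 3 northern populations and had a southern mean of 0.29. Counting can split reads among the contigs of a gene, and its part in these values was not tested.

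The shares of raw counts show what the members weighed in a library. The most abundant member took 7.16 ± 1.66% in northern larvae at 20 °C and 9.16 ± 1.13% at 24 °C, and 7.16 ± 0.617% and 7.48 ± 1.201% in southern larvae (SD, n = 6). The other 43 warm-high members together took 0.140 ± 0.0116% in northern larvae at 20 °C and 0.170 ± 0.0133% at 24 °C, against southern shares of 0.154 ± 0.0134% and 0.147 ± 0.00692%. The 16 warm-low members took 0.0426 ± 0.00329% in northern larvae at 20 °C and 0.0266 ± 0.00271% at 24 °C, against southern shares of 0.0430 ± 0.00439% and 0.0397 ± 0.00375%. On raw shares the northern ratio of 24 to 20 °C was 1.28, 1.21 and 0.623 for these 3 sets, and on TMM-scaled library sizes it was 1.48, 1.40 and 0.720.

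The choice of scaling bears on the list as a whole. On raw library totals the median northern response of all abundant contigs was -0.18, against 0.02 with TMM, and the same rule then gave 1 contig higher at 24 °C and 59 lower, with 10 of the 60 members among them. Median-of-ratios scaling gave 42 higher and 18 lower, with 55 members among them. All 44 warm-high and all 16 warm-low members kept their northern direction under each of the 3 scalings. Their medians on raw totals were 0.29 and -0.63, beside -0.18 for all abundant contigs. The members were chosen on these same libraries, so neither the kept direction nor these medians test the choice. On raw totals the southern mean response stayed within the limits of the rule in 48 of the 60 members. The southern minus northern level at the lower temperature did so in 45. With median-of-ratios scaling these counts were 60 and 58.

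The variation of members from pool to pool was also compared. The difference between pools a and b of each population and temperature gives 12 values per contig. The rule used means over the pools and not these differences. A far value in 1 pool moves both, so the differences are not independent of the choice and the correlations are descriptions only. Correlations of these differences were taken without subtracting a contig's mean difference. Over pairs of members they had a median of 0.07 for 2 warm-high members, 0.06 for 2 warm-low members and -0.04 for 1 of each. Over all pairs of abundant contigs the median was 0.00, with 12 points that share libraries and depth. Correlations over 0.5 made up 13.1% of the pairs of warm-high members and 8.33% of the pairs of warm-low members. They made up 4.83% of the pairs with 1 of each and 7.23% of all abundant pairs. The strongest pair was TRINITY_DN71268_c0_g1_i3 with TRINITY_DN15977_c0_g2_i2, at 0.94. The pools of northern population 1 at 20 °C differed most over the members, by a median of 0.49. Pool a minus pool b had a median there of 0.25 in the warm-high and -0.143 in the warm-low members.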

How the data were processed

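RNA was sequenced from 24 libraries of whole male larvae, each a pool of 3 larvae, with 6 libraries for each latitude and temperature. Per the labels' protocols, TruSeq libraries were sequenced from both ends on a HiSeq machine. The deposited file is 1 table of raw counts, with 34095 Trinity contigs as rows. The submitters' processing notes name Subread 1.5.1, featureCounts, Trimmomatic 0.36 and FastQC 0.11.5. How the assembly was made and whether strand was used is not given in the sources used here.

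From the counts, TMM-scaled CPM and then log2(CPM + 1) were computed for all contigs, with edgeR 4.0.16 in R 4.3.3, and the rule was applied to these. The members, the lists and the tests were chosen with earlier results of these data known. Tests were fitted on the 31287 contigs that passed filterByExpr (minimum count 10, minimum total 15), by the robust quasi-likelihood F test on all 24 libraries, with 1 intercept per population and separate temperature effects for north and south. Southern population-by-temperature differences used 12 means. Adjusted p-values are Benjamini-Hochberg over all tested contigs, with a threshold of 0.05. SE values are those implied by the F statistics. Before use, the edgeR fits and the rule were tried on made-up values. DESeq2 1.42.0, other scalings, filters, pseudocounts, limits and left-out libraries or populations were alternatives.

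Library totals of 12061616 to 17157615 counts limit the precision of low contigs. Population is the block that pairs temperatures, per the labels. Where contigs are named, the rule took the 2 highest-ranked members per direction, the most abundant per direction, the 2 with the smallest p in each population test, the gene with most other contigs, and the contigs at the end of the list. Members apart from all other libraries, the strongest pair of members and single far values were named after their values were seen.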

Additional observations from a re-analysis of the deposited data

Results flagged for a closer look

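Within groups of 6 libraries, 68 sets of values of 14 contigs and of the summed shares were searched for a lowest or highest library far from the others by Dixon's criterion, which chance meets in about 1 of 20 groups, and 11 were found. Of these, 3 were in pool b of northern population 1 at 20 °C. TRINITY_DN68415_c43_g1_i1 stood at 36410 CPM there against 68730 to 85680 in the other libraries of the group. TRINITY_DN69259_c0_g1_i1 stood at 57.8 CPM against 79.0 to 90.4. The share of counts of the 43 less abundant warm-high members was 0.117% against 0.142 to 0.149%.

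Pool a of northern population 2 at 24 °C was high in 3 values. TRINITY_DN4855_c10_g1_i1 stood at 62.1 CPM against 37.9 to 41.4, TRINITY_DN1958_c1_g1_i2 at 34.2 CPM against 11.9 to 16.6, and the share of the 43 warm-high members at 0.196% against 0.162 to 0.172%. In the libraries of northern population 1 at 24 °C, TRINITY_DN137370_c0_g1_i1 stood at 2.19 CPM in pool a against 4.45 to 5.56, and the share of the warm-low members at 0.0317% in pool b against 0.0238 to 0.0267%.

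In southern larvae TRINITY_DN1958_c1_g1_i2 stood at 65.1 CPM in pool b of population 3 at 20 °C against 4.94 to 10.0, and at 28.4 CPM in pool b of that population at 24 °C against 5.81 to 9.40. TRINITY_DN278538_c1_g1_i1 stood at 20.7 CPM in pool a of population 2 at 24 °C against 34.2 to 41.5. No cause was tested for any of these values.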

How the results depend on the processing

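All 44 warm-high and 16 warm-low members kept their northern direction on raw library totals and with median-of-ratios scaling, but membership was not stable. Of the 60 members, 59 stayed with TMM factors after the filter, 55 and 51 with pseudocounts of 0.5 and 2, 10 with raw totals, 24 with no CPM minimum, 37 with a minimum of 10 CPM, 30 and 33 with limits of ±0.10 and ±0.20, 9 with pool a alone and 6 with pool b alone. Leaving out a library or a population kept 15 to 54, with 15 without northern population 1 and, among libraries, 28 without pool b of northern population 1 at 20 °C. Median northern responses of warm-high members were 0.51 and 0.47 with pseudocounts of 0.5 and 2, 0.29 on raw totals and 0.44 to 0.54 with libraries or populations left out, and those of warm-low members -0.63 on raw totals and -0.46 to -0.39.

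Counts of called members moved as follows. The northern response gave 42 in DESeq2, 0 with pools summed and 0 to 19 with libraries or populations left out. The difference between responses gave 1 in DESeq2 and 0 in the other 37 alternatives. Southern populations gave 2 in DESeq2, and 0 to 1 with libraries or populations left out. Northern populations gave 0 with contigs at 0 in 10 or more libraries left out, also when only the adjustment left them out (added after seeing the data), 0 with pools summed, 0 with population-by-temperature means and 0 to 3 with libraries or populations left out. Without population as a block, the paired design being by population, the northern response gave 10, and the southern response and the difference 0. For the southern response and for southern population-by-temperature every alternative run gave 0.

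For contigs chosen on pool a and read in pool b, the northern response was 0.74 when only the northern conditions were used for the choice (added after seeing the data) and the southern response 0.25. The southern response was 0.0977 with pools exchanged and 0.0536 with 120 contigs. Without 1 population the northern value was 0.20 to 0.36 and the southern 0.02 to 0.04. Shares of counts, as northern ratios of 24 to 20 °C, were 1.48 for the most abundant member, 1.40 for the other 43 warm-high members and 0.720 for the warm-low members on TMM-scaled sizes. The causes of these shifts were not tested. Depth left no member near the floor of 3 counts, since the lowest count of a member in any library was 20.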
